A study of Mus musculus with 4 samples.

Results

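The cells described here are non-cycling Hlf-positive stem cells of mouse bone marrow: 2066 of 34320 quality-filtered single cells (6.02%) from 4 single-cell RNA-seq libraries. They were selected on their own transcript counts. A cell entered when it had at least 1 UMI (a counted transcript molecule) of Hlf, at least 1 UMI of Procr or Mecom, and 0 UMIs of Gata1, Cebpe, Dntt, Mki67 and Top2a. Those 8 genes therefore describe the selection and are not findings. The study sorted LSK cells (lineage-negative, Sca-1-positive, Kit-positive progenitors) from the marrow of wild-type mice, 2 libraries from vehicle-treated controls and 2 from mice given Yoda1 intraperitoneally over 2 weeks. Yoda1 is a small-molecule agonist of PIEZO1, a mechanically gated cation channel. The strain, age and number of mice behind each library are not given in the sources used here. The p-values below therefore rest on the spread between libraries, and that spread may be technical only. The test of treatment inside against outside the gate is an exception, described with its results. Per-library values follow the order control 1, control 2, Yoda1 1 and Yoda1 2.

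Haematopoietic stem cells sit at the top of the blood hierarchy, and most of them in the adult marrow are out of the cell cycle at any moment. HLF is a leucine-zipper transcription factor whose transcript is largely restricted to stem cells and the earliest progenitors. Procr encodes the endothelial protein C receptor, a surface marker of these cells, and Mecom encodes the transcription factor EVI1, which is required for their maintenance. Mllt3 supports stem cell self-renewal, and Cdkn1c encodes the cyclin-dependent kinase inhibitor p57, which holds stem cells in quiescence. On the excluded side, Gata1 marks erythroid and megakaryocytic commitment, Cebpe granulocytic commitment and Dntt lymphoid priming, while Mki67 and Top2a mark cycling cells.

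Several features of the libraries bear on all that follows. The gated cells numbered 180, 307, 300 and 1279, so Yoda1 2 supplied 61.9% of them. Median depth in gated cells was 5232.5, 5570, 4847 and 5558 UMIs per cell, against 11434.5, 9730, 10460 and 7943 in the other kept cells, and the part of depth in the choice of cells, which must hold 0 UMIs of 5 genes, was not tested. Their summed counts came to 998524, 1817542, 1569222 and 7635385 UMIs. Mitochondrial transcripts made up a median of 1.59%, 1.84%, 2.28% and 2.13% of UMIs. Pairs of libraries shared 14 to 30 cell barcodes, and no barcode was gated in more than 1 library. Between libraries, 0.798% to 1.78% of 6638 genes at 20 CPM (UMIs of a gene per 1000000 UMIs) or more differed by over 2-fold in the gated sums, and control 1 against control 2 gave 1.19%.

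The share of gated cells did not separate the treatments. Gated cells made up 2.36% of kept cells in control 1 (exact binomial 95% interval 2.03% to 2.73%, counting error only), 3.92% in control 2 (3.51% to 4.38%), 3.29% in Yoda1 1 (2.93% to 3.68%) and 13.1% in Yoda1 2 (12.4% to 13.8%). Yoda1 1 lay between the controls, and Yoda1 2 stood above all the others. The group means were 3.14% ± 1.10 (SD, n = 2) in control and 8.20% ± 6.94 (SD, n = 2) with Yoda1, and a two-sided exact permutation test gave p = 0.667, where 0.3333 is the smallest value that the 6 arrangements of 4 libraries allow. Without Yoda1 2 the difference was 0.145 percentage points. When each cell was first thinned to 3000 UMIs, the shares were 1.93%, 2.66%, 2.65% and 9.69%.

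**Figure D1:**
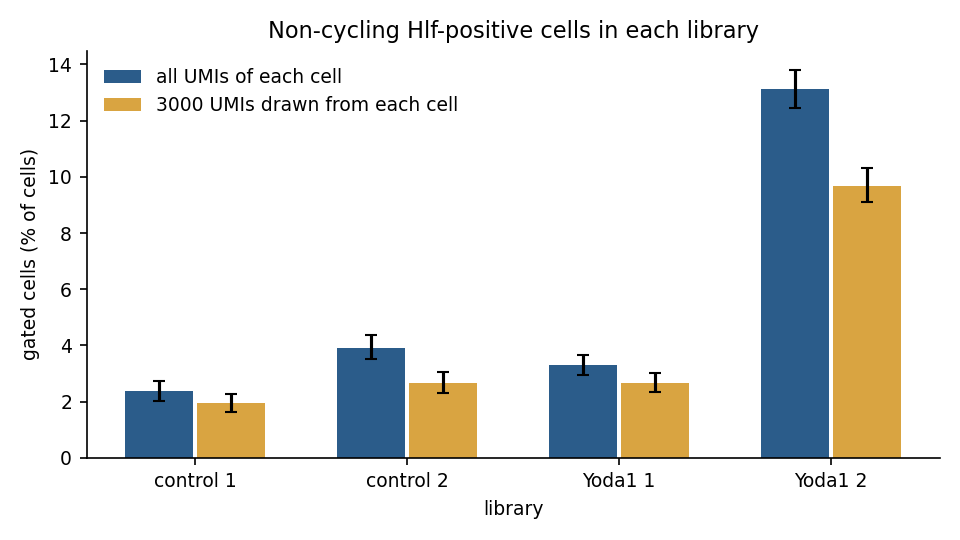
Share of gated cells in each library (y axis, percent of cells; bars with exact binomial 95% intervals), with all UMIs and after drawing 3000 UMIs from each cell. Yoda1 2 reaches 13.1% and 9.69%, and the other 3 libraries lie between 1.93% and 3.92%.

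The excess in Yoda1 2 was present at the first step of the gate and at each later step. A UMI of Hlf was found in 33.5%, 36.4%, 37.6% and 69.6% of kept cells. Adding a UMI of Procr or Mecom left 11.1%, 13.3%, 13.4% and 38.2%. The condition on Dntt took the number of cells from 583 to 440, from 868 to 582, from 1046 to 789 and from 3519 to 2308. Cells meeting every condition except the one on Mki67 and Top2a, the cycling cells of the same gate, numbered 260, 275, 489 and 1029. They were 59.1%, 47.3%, 62.0% and 44.6% of the Hlf-positive gate as a whole, or 32.2%, 29.0%, 40.4% and 28.6% at 3000 UMIs per cell. Yoda1 1 had the highest cycling fraction and Yoda1 2 the lowest on the thinned scale, so the treated libraries lay on both sides of the controls.

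Many members sat at the edge of the gate. Exactly 1 Hlf UMI admitted 28.9%, 29.0%, 30.7% and 20.95% of them, and the deepest Hlf count in a single cell was 11, 15, 11 and 22. Procr and Mecom together gave exactly 1 UMI in 67.8%, 64.5%, 62.3% and 52.1%. Both genes were seen in 16.1%, 16.6%, 17% and 26.9% of members, and Mecom alone admitted more cells than Procr alone in every library. Just outside, 67, 100, 164 and 351 cells failed through a single Mki67 or Top2a UMI, and 41, 69, 79 and 215 met every other condition but had no Hlf UMI. At 3000 UMIs per cell Hlf was found in 80.3% to 83.6% of gated cells and in 3.92% to 7.96% of Elane-high granulocytic progenitors (at least 20 Elane UMIs, median depth 17570 to 19964 UMIs).

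Markers outside the rule placed the gated cells near the stem cell end of the LSK compartment, with a progenitor component. Mllt3 stood at 91.1, 82.5, 115 and 101 CPM in the gated sums and at 23.6, 22.4, 21.98 and 35.8 CPM in the other kept cells. All 4 gated values were above all 4 others, and the difference was 1.67 on the log2 scale (SE 0.11, edgeR quasi-likelihood test with library as a block). Cdkn1c stood at 21.03, 23.7, 31.9 and 37.3 CPM against 2.45, 3.14, 2.76 and 11.01 CPM, a log2 difference of 2.44 (SE 0.21). Kit, the stem cell factor receptor, was higher by 0.71 (SE 0.08) and Meis1, a homeobox factor, by 1.15 (SE 0.10) on the same scale. Cd48, a surface protein gained on leaving the stem cell state, had a log2 difference of -0.87 (SE 0.10). Flt3, the receptor of multipotent and lymphoid-primed progenitors, did not pass the test (log2 difference 0.13, SE 0.11, adjusted p = 0.389), and a Flt3 UMI was found in 35.6%, 43.0%, 29.3% and 45.3% of gated cells. Cd34, low in long-term stem cells, was found in 81.7%, 84.7%, 80.7% and 83.7% of them. Its level was higher in gated than in other kept cells in each library, at 440.6, 497, 396 and 462 CPM against 237, 293, 260 and 432 CPM. Slamf1, which encodes CD150, was close to undetected everywhere, at 2.55 to 5.11 CPM in gated cells.

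**Figure D2:**
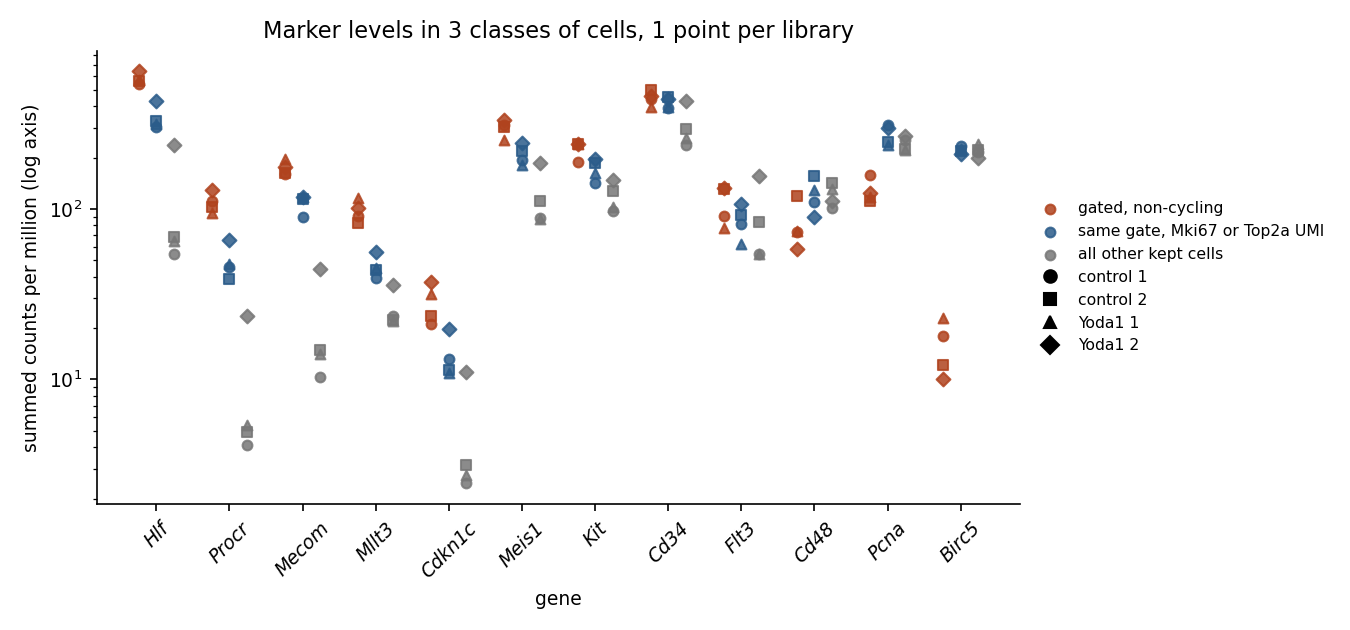
Summed CPM (log axis) of 12 genes in gated cells, cycling cells of the same gate and all other kept cells, 1 point per library. Hlf, Procr and Mecom chose the cells. Mllt3 and Cdkn1c are higher in gated cells in each library, and Cd48 is lower. Cd34 and Flt3 are carried by gated cells too, and Cd34 is higher there than in the other kept cells in each library.

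Across all genes the gated cells differed widely from the rest of the LSK compartment. Of 16237 genes tested, the 8 gate genes set aside, 17.1% were higher and 23.2% lower at an adjusted p under 0.05. Of 22 stem cell transcription factors, 18 were higher and none lower, with a median log2 difference of 1.07 against -0.002 over all genes. The largest rises by the naming rule were Meg3, an imprinted long non-coding RNA (26.0 against 1.82 CPM on average, log2 difference 3.84, SE 0.27), Gimap1os, Ltb, which encodes lymphotoxin beta (314 against 57.4 CPM), Cdkn1c, Nkx2-3, a homeobox factor (96.2 against 19.9 CPM), Gimap8, Col4a2, Gsta4, Plxna4os1 and Samd12. Imprinted genes were higher in 12 of 15 tested and lower in 2. Interferon-response genes were higher in 27 of 34, immediate early genes in 15 of 21, and NF-kB pathway genes in 10 of 17. The oxidative phosphorylation list was lower in all 24 members, with a median log2 difference of -0.71, and ribosome biogenesis was lower in all 16, with a median of -0.60. Myeloid genes were lower in 13 of 15, with a median of -2.70. Markers of more distant cells were mixed. The B cell list summed to 48.1, 73.2, 42.1 and 60.1 CPM in gated cells, most of it Cd79b (44.1, 62.2, 38.2 and 50.6 CPM), with Rag1 at 0 in all 4 libraries. The endothelial list summed to 87.1, 90.8, 77.1 and 98.5 CPM, most of it Pecam1 and Emcn, which stem cells also express, with Cdh5 and Flt1 at 0. The stromal list summed to 30.04, 40.2, 22.3 and 21.7 CPM, most of it Pdgfrb (30.04, 39.1, 21.03 and 20.2 CPM), with Pdgfra and Bglap at 0.

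Against cycling cells of the same gate, whose S phase and G2/M genes the rule itself sets apart, 18% of 11251 genes were higher and 18.3% lower. Meg3 again led the rises, at 27.0, 13.8, 29.3 and 33.8 CPM in gated cells and 3.625, 3.46, 9.95 and 10.6 CPM in cycling ones, a log2 difference of 1.76 (SE 0.15). Tcp11l2 followed, at 44.7 against 14.9 CPM on average (log2 difference 1.42, SE 0.13), then Ltb (1.29, SE 0.08) and Slfn5, a Schlafen family gene (1.28, SE 0.10). Wfdc17 and the chemokine gene Ccl3 rose by 1.16 and 1.17 on the log2 scale. Mllt3 was higher by 0.99 (SE 0.08) and Cdkn1c by 0.995 (SE 0.12) on the log2 scale. Of 21 stem cell transcription factors tested, 17 were higher and none lower, and 15 of 17 immediate early genes were higher. Cdk6, the kinase partner of D-type cyclins that sets how fast stem cells leave quiescence, had a log2 difference of -0.45 (SE 0.04), and Ccnd2, a D-type cyclin, one of 0.41 (SE 0.05). Oxidative phosphorylation genes were lower in 23 of 24. These cycling cells were deeper, with medians of 10431.5, 8989, 8732 and 9982 UMIs, and with the gate drawn on cells thinned to 3000 UMIs 2028 genes were called in place of 4089, gate genes included.

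Cycle transcripts were not fully absent from gated cells, which the rule screens for Mki67 and Top2a only. At 3000 UMIs per cell, a UMI of any of 16 other G2/M genes was found in 39.6%, 26.6%, 41.5% and 25.6% of gated cells, against 73.5%, 62.4%, 73.9% and 54.1% of other cells. Birc5, a mitotic regulator, stood at 18.0, 12.1, 22.9 and 10.1 CPM in gated cells and at 211 to 234 CPM in cycling ones. The S phase gene Mcm5, a replicative helicase subunit, stood at 75.1, 62.7, 72.6 and 55.3 CPM against 134 to 173 CPM. Both the second control and the second Yoda1 library sat at the low end for these transcripts.

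The gated cells were not uniform, and the p57 gene marked a subset that leaned further to the stem cell side in each of the 4 libraries. A Cdkn1c UMI was found in 19, 37, 39 and 212 gated cells, which is 10.6%, 12.1%, 13.0% and 16.6% of them, or 7.101%, 6.73%, 7.96% and 9.48% at 3000 UMIs per cell; in Elane-high cells the thinned share was 0.0815% to 0.498%. Cells with a Cdkn1c UMI held Mllt3 at 174, 159, 228 and 161 CPM, and cells without one at 81.6, 72.7, 100 and 87.4 CPM. Cd48 went the other way, at 29.0, 62.7, 27.2 and 31.3 CPM with Cdkn1c and 78.2, 127, 80.9 and 64.1 CPM without. Cd34 was lower too, at 271, 280, 261 and 342 CPM against 460, 525, 414 and 489 CPM. Cdk6 stood at 242, 314, 239 and 201 CPM with Cdkn1c and 549, 527, 389 and 313 CPM without it. Flt3 was lower in every library, and in Yoda1 1 none of the 39 cells with Cdkn1c had a Flt3 UMI, which allows a share of up to 7.69% of cells with a UMI and sets no limit on cells that express the gene. In control 1 and Yoda1 2 both kinds of cell had like depths, with medians of 5346 and 5225 UMIs in control 1 and 5588 and 5544 in Yoda1 2. The cells were divided after their values were seen, so these are descriptions with no test.

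**Figure D3:**
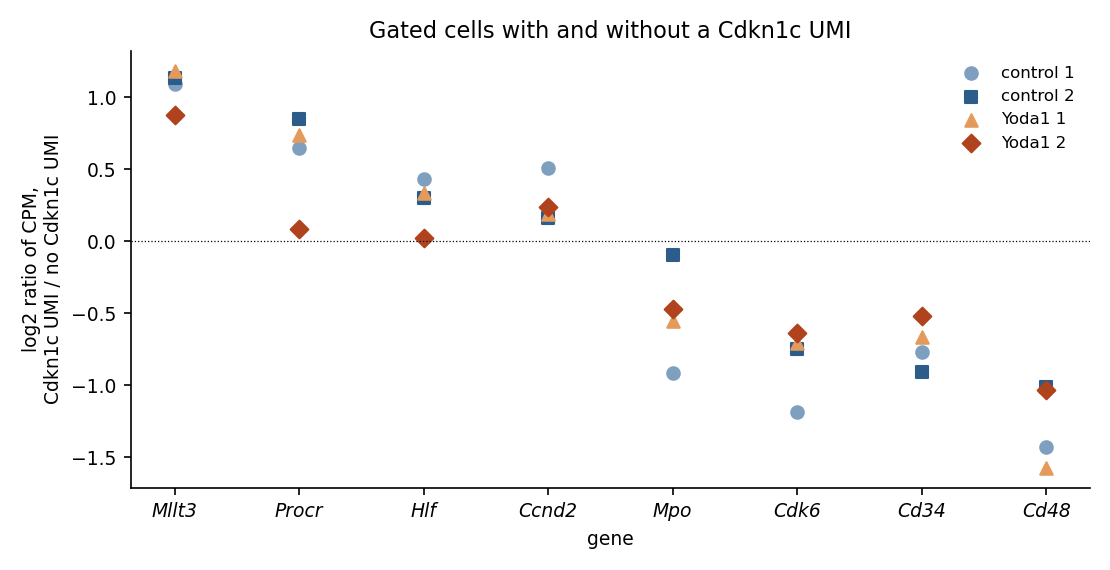
Log2 ratio of summed CPM between gated cells with and without a Cdkn1c UMI (y axis) for 8 genes, 1 point per library. Mllt3 and Ccnd2 lie above 0 and Mpo, Cdk6, Cd34 and Cd48 below 0 in all 4 libraries. Procr and Hlf also lie above 0 in all 4, but they are genes of the gate that chose the cells and are not findings.

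A division by Cd34 gave a like picture. Gated cells with no Cd34 UMI numbered 33, 47, 58 and 209, and they held Cdkn1c at 43.6, 89.6, 70.2 and 102 CPM against 17.4, 14.4, 24.4 and 27.8 CPM in Cd34-positive members. Their Mllt3 level was 203, 170, 242 and 222 CPM against 73.2, 70.2, 90.6 and 82.8 CPM. Vwf, a von Willebrand factor transcript of platelet-biased stem cells, stood at 21.8, 17.9, 19.5 and 25.6 CPM against 5.81, 4.39, 5.33 and 3.155 CPM. No value of one set overlapped the other, but all gated cells together held only 8, 11, 12 and 46 Vwf UMIs, so these levels rest on few molecules. Cells without Cd34 were shallower (medians of 4270, 4684, 4124 and 4496 UMIs against 5452, 5785.5, 5016 and 5751.5), and the part of depth in this difference was not tested.

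The treatment comparison asked which transcripts differ between Yoda1 and control inside the gate. With edgeR's quasi-likelihood test over the 4 summed libraries, 0% of 10342 genes passed an adjusted p of 0.05. At an unadjusted p under 0.05, 1.39% of genes were higher and 1.42% lower; DESeq2 and limma-voom also called 0 genes, with 58 and 337 at an unadjusted p under 0.05. Both Yoda1 values lay above both control values for 14.9% of genes and below them for 15%. With Yoda1 1 left out 53 genes passed (4 higher and 49 lower), and with Yoda1 2 left out 96 did (86 higher and 10 lower). Each of those fits has a Yoda1 group of 1 library, whose spread is assumed to be that of the controls, so the counts describe single libraries and not the treatment. Genes named below from this comparison are thus leading candidates by rank, none of them called.

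Fos had the smallest p of all genes. Fos (chromosome 12, 85473890-85477273 on the plus strand of GRCm38) encodes a subunit of the AP-1 transcription factor and is switched on within minutes of a stimulus. Its level was 90.1, 111, 41.4 and 43.1 CPM, both Yoda1 libraries lying below 44 CPM and both controls at or above 90 CPM. The log2 fold change was -1.26 (SE 0.16), with an adjusted p of 0.475 by edgeR's quasi-likelihood test. A Fos UMI was counted in 40 of 180, 93 of 307, 39 of 300 and 196 of 1279 gated cells. The other kept cells held Fos at 31.7, 49.3, 15.9 and 27.8 CPM, in the same order of groups, and a test of the difference between the gated and other cells' fold changes did not pass (adjusted p = 1 by edgeR's quasi-likelihood test, log2 difference -0.33). Its log2 fold change lay between -1.37 and -1.11 when each library was left out.

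Other early-response genes among the lowest by rank were Klf2 and Klf6, zinc-finger factors, and Dusp1, a MAP kinase phosphatase. Klf2 stood at 27.0, 38.0, 14.7 and 15.2 CPM (log2 fold change -1.15, SE 0.24), Klf6 at 90.1, 77.6, 44.6 and 52.9 CPM (-0.75, SE 0.17) and Dusp1 at 60.1, 77.6, 40.1 and 43.7 CPM (-0.72, SE 0.17). Btg2, an antiproliferative gene of the quiescence list, stood at 61.1, 74.8, 41.4 and 44.7 CPM. In these 4 genes the groups did not overlap. The list as a whole was mixed: of 15 immediate early genes tested, 13 had a negative fold change, 4 had non-overlapping lower groups (26.7%, against 15% of all genes) and none higher, and the median log2 fold change was -0.32 against 0.002 over all genes. Jun, the usual AP-1 partner of Fos, stood at 289, 567, 343 and 342 CPM, both Yoda1 values falling between the controls, and Egr1 at 63.1, 107, 49.1 and 119 CPM. Without control 2 the list's median was 0.12, so its sign rests on that library.

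**Figure D4:**
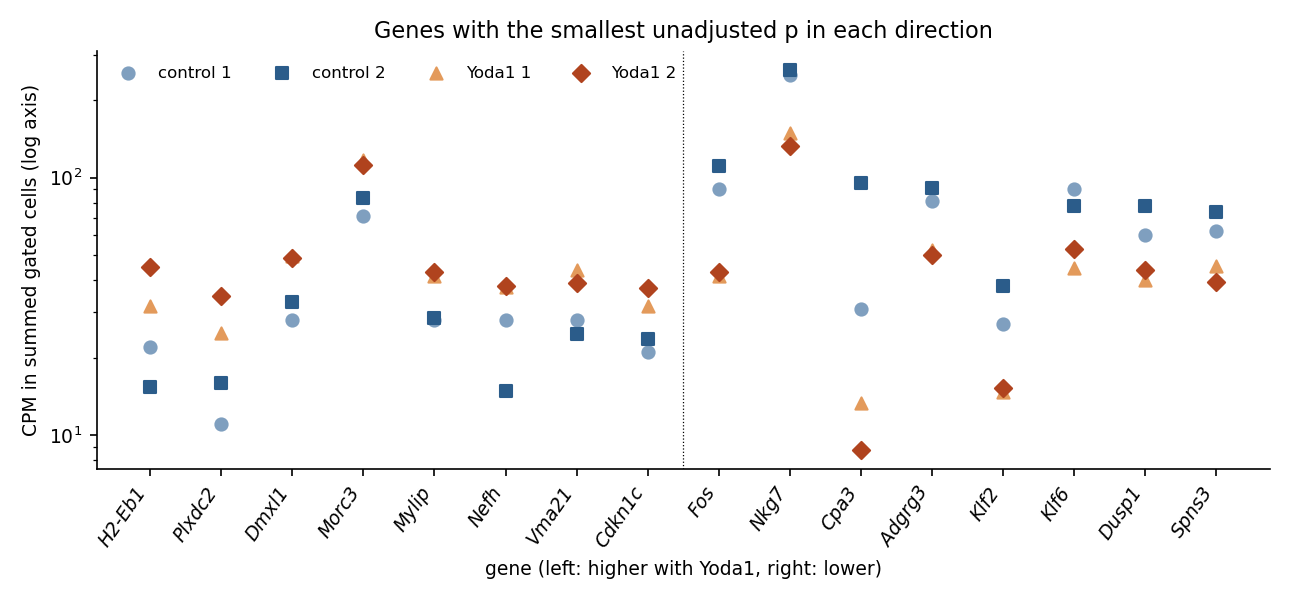
CPM in the summed gated cells (log axis) of the 8 genes per direction with the smallest unadjusted p among those at 20 CPM or more whose groups do not overlap, 1 point per library. Fos lies at 90.1 and 111 in the controls and 41.4 and 43.1 with Yoda1; none of the 16 genes passed the adjusted threshold.

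Fos, Dusp1 and Btg2 share a core of the cyclic AMP response element, TGACGT, in the promoter window that RefSeq gives for each (GRCm38.p6, 250 bases before to 50 after the start). They were picked for display because they hold this core; Klf2 and Klf6, which were as low in both Yoda1 libraries, have windows without it. Capitals mark each match on either strand, and matches on the 2 strands overlap in the palindrome. Fos is at chr12:85473777-85473876 (plus strand), Dusp1 at chr17:26508586-26508685 and Btg2 at chr1:134079268-134079367 (both minus strand).
Fos: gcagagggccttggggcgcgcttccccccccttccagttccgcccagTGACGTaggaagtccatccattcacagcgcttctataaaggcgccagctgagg
Dusp1: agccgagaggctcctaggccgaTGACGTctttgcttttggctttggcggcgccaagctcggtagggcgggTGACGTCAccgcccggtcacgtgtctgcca
Btg2: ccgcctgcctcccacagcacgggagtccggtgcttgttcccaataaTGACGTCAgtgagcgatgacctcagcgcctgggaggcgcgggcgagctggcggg
The core was found in 7.51% of all 32851 windows, in 8.37% of genes with a window and in 5 of 18 immediate early genes with one. A match of letters is a description of the sequence and not of any factor's binding.

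The remaining leading genes on the lower side were Nkg7, Cpa3, Adgrg3 and Spns3. Nkg7, a granule protein gene of cytotoxic cells, stood at 251, 262, 149 and 133 CPM (log2 fold change -0.87, SE 0.15), and was carried by 104 of 180, 181 of 307, 117 of 300 and 521 of 1279 cells. The other kept cells held more of it in each library, at 411, 443, 313 and 262 CPM, also lower in both Yoda1 libraries. Cpa3, the mast cell carboxypeptidase, stood at 31.0, 95.7, 13.4 and 8.77 CPM (log2 fold change -2.73, SE 0.47). Much of that in control 2 came from few cells: 3 of 307 cells held 50% of its Cpa3 UMIs, and without the 3 highest cells of each library the levels were 18.0, 47.9, 8.92 and 7.07 CPM, and the groups did not overlap. Adgrg3, an adhesion G-protein-coupled receptor, stood at 81.1, 91.3, 52.3 and 50.03 CPM.

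On the positive side the first by rank were H2-Eb1, Plxdc2, Dmxl1, Morc3, Mylip, Nefh, Vma21 and Cdkn1c. Cdkn1c (chromosome 7, 143458339-143461050 on the minus strand) stood at 21.03, 23.7, 31.9 and 37.3 CPM, both Yoda1 libraries above both controls, and the log2 fold change was 0.64 (SE 0.20), unadjusted p = 0.0128 by edgeR. Plxdc2, a plexin-domain membrane protein, stood at 11.02, 15.96, 24.9 and 34.7 CPM and was spread over 11, 24, 35 and 221 cells with at most 3 UMIs each. Dmxl1, a regulator of the vacuolar proton pump, stood at 28.0, 33.0, 49.7 and 48.6 CPM, and Vma21, an assembly factor of that pump, at 28.0, 24.8, 44.0 and 38.9 CPM. Morc3, a nuclear ATPase, stood at 71.1, 83.1, 117 and 112 CPM.

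The MHC class II gene H2-Eb1, first of these by p, rested largely on 3 cells in Yoda1 2. Its level was 22.03, 15.4, 31.9 and 45.1 CPM, but 3 of 1279 cells held 69.8% of the UMIs in Yoda1 2, with 127 in a single cell. Without the 3 highest cells of each library, a step chosen after the values were seen, it stood at 17.03, 11.6, 27.4 and 13.6 CPM and the groups overlapped. A UMI was found in 11.1%, 7.17%, 14.3% and 6.72% of gated cells. Cd74, the class II invariant chain, showed the same concentration: 103, 72.1, 128 and 135 CPM in all gated cells, and 82.1, 33.6, 105 and 50.7 CPM without the 3 highest cells of each library. Whether these few cells are doublets was not tested cell by cell.

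Interferon-response genes departed from the controls in opposite directions in the 2 Yoda1 libraries. Isg15, a ubiquitin-like antiviral modifier, stood at 147, 112, 566 and 43.0 CPM, Ifit3 at 31.0, 19.3, 133 and 5.89 CPM and Ifit1 at 73.1, 89.7, 293 and 32.9 CPM; the Ifit proteins bind foreign RNA. Rsad2, the antiviral enzyme viperin, stood at 66.1, 43.5, 218 and 23.8 CPM. In each of these 4 genes Yoda1 1 was the highest library and Yoda1 2 the lowest, with both controls between them. All 34 members tested were above both controls in Yoda1 1, against 2977 of all 10342 genes. In Yoda1 2, 33 of the 34 were below both, against 2608 of all genes. The exception was Irf1, at 61.1, 56.1, 102 and 68.2 CPM. Relative to the mean of the controls, the list's median log2 level was 0.17, -0.17, 1.29 and -0.81. The fitted median over Yoda1 against control, 0.52, is therefore an average of opposite departures. It was 1.31 without Yoda1 2 and -0.88 without Yoda1 1, in fits that again have 1 Yoda1 library. The difference between the 2 Yoda1 libraries has no replicate behind it.

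The difference was carried by most gated cells. At 3000 UMIs per cell the list gave a median of 13, 12, 31 and 8 UMIs per gated cell, and the lower quartile in Yoda1 1, 24, exceeded the upper quartile of every other library, 20, 16 and 10. The other kept cells showed the same order: the list summed to 2598.5, 2200, 5713 and 1983 CPM in the other kept cells and to 5022, 3989, 10673 and 2752 CPM in gated cells. Ly6a, which encodes the Sca-1 antigen used in the sort and is itself interferon-inducible, followed the same order, at 578, 314, 938 and 215 CPM.

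The promoters of this list hold a shared core, shown because these are the genes that moved together across libraries. The list was drawn up as interferon-response genes, so its share of promoters with the core describes that choice and not these data. The 9-letter core of the interferon-stimulated response element, GAAANNGAA, was found in 19 of 25 list genes with a RefSeq window (76.0%), against 9.76% of 27025 genes and 8.56% of all windows. Capitals mark matches on either strand, which overlap one another in Isg15 and Ifit1. Isg15 is at chr4:156200837-156200936 (minus strand), Ifit1 at chr19:34640747-34640846 and Ifit3 at chr19:34583355-34583454 (both plus strand), and Rsad2 at chr12:26456518-26456617 (minus strand), all on GRCm38.p6.
Isg15: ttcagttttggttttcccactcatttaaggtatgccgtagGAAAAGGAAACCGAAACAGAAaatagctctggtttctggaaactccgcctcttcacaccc
Ifit1: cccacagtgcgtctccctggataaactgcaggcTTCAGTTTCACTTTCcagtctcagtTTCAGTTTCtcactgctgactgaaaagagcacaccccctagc
Ifit3: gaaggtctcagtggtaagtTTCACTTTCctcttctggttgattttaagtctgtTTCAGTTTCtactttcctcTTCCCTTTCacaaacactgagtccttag
Rsad2: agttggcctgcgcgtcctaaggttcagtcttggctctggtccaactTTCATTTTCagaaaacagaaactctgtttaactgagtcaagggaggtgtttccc

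**Figure D5:**
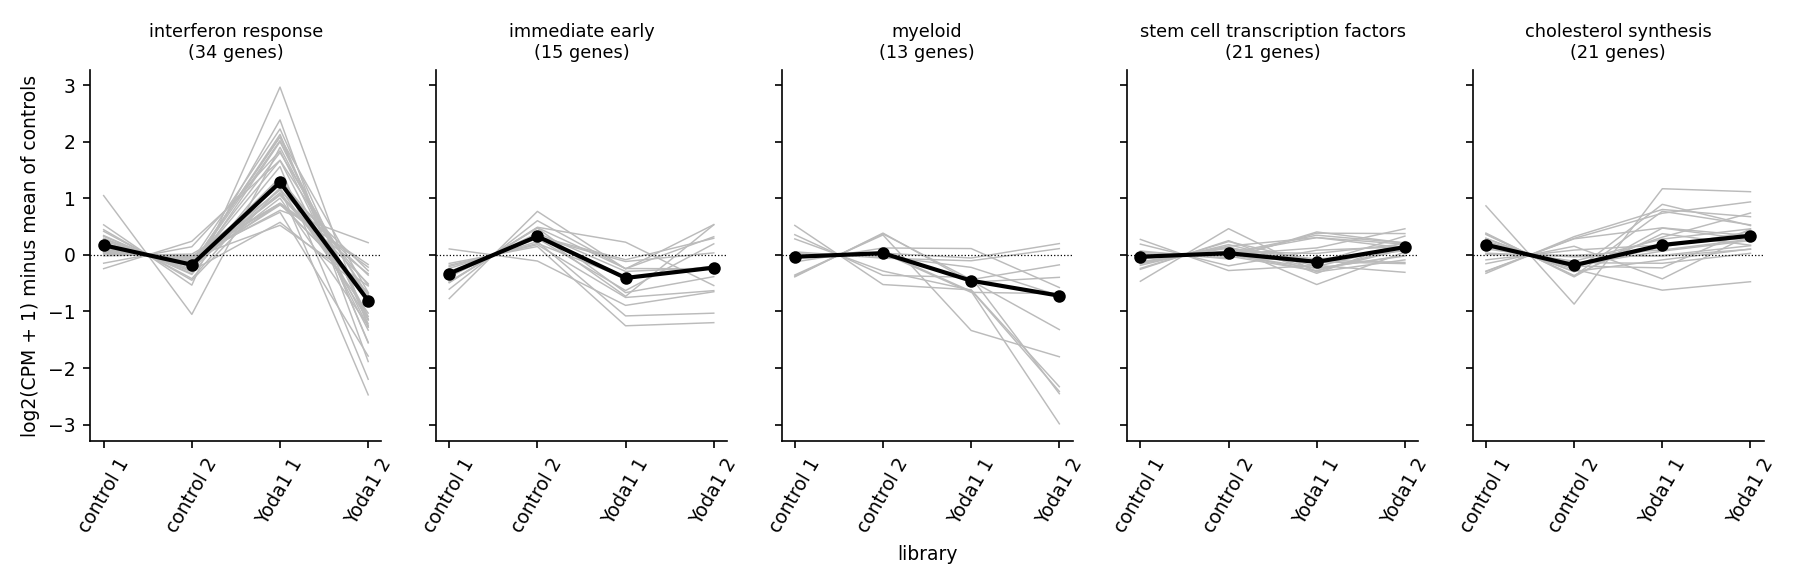
Level of each tested member of 5 gene lists in the gated sums (y axis, log2(CPM + 1) minus the mean of the controls); grey lines join 1 gene's values over the 4 libraries and black points give the list's median. The interferon median is 1.29 in Yoda1 1 and -0.81 in Yoda1 2, and the stem cell transcription factors stay near 0 in all 4.

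Stem cell regulators differed little between the treatments. Over 21 transcription factors the median log2 fold change was -0.01, with 5 members non-overlapping higher (23.8%, against 14.9% of all genes), 2 lower (9.52%, against 15%) and none at an unadjusted p under 0.05. Mllt3 stood at 91.1, 82.5, 115 and 101 CPM. Its log2 fold change was 0.32 (SE 0.16, unadjusted p = 0.0891 by edgeR), and with the gate drawn on thinned cells it was -0.018. Kit stood at 189, 241, 241 and 242 CPM and Cd34 at 440.6, 497, 396 and 462 CPM, the groups overlapping in both. Cd48 stood at 73.1, 119, 74.6 and 58.2 CPM. Itga2b, the integrin CD41, was the surface gene with the smallest p, at 35.1, 34.7, 21.7 and 17.4 CPM (log2 fold change -0.89, SE 0.22). Among 16 quiescence genes, Cdkn1c was the only one higher at an unadjusted p under 0.05, and Btg2 and Cdkn1a, which encodes p21 (19.03, 25.3, 13.4 and 10.9 CPM), were lower. Of 12 imprinted genes 5 were non-overlapping higher (41.7%, against 14.9% of all genes) and 2 lower (16.7%, against 15%); Meg3 stood at 27.0, 13.8, 29.3 and 33.8 CPM. Cdk6 stood at 517, 503, 372 and 292 CPM (log2 fold change -0.62, SE 0.16), and Ccnd1, cyclin D1, at 23.0, 12.1, 22.3 and 35.9 CPM.

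Transcripts of the myeloid lineage were lower with Yoda1 by rank, and the same order held outside the gate. Of 13 myeloid genes tested, 9 had non-overlapping lower groups (69.2%, against 15% of all genes) and none higher, with a median log2 fold change of -0.71; 8 were below an unadjusted p of 0.05 and none passed after adjustment. Mpo, the azurophil granule enzyme myeloperoxidase, stood at 677, 456, 361 and 103 CPM, and Elane, neutrophil elastase, at 321, 155, 145 and 43.6 CPM. In the other kept cells Mpo stood at 3448, 2468, 2346 and 705 CPM and Elane at 2428, 2490, 1615 and 557 CPM. At 3000 UMIs per cell an Elane UMI was found in 59.2%, 32.7%, 35.6% and 12.2% of gated cells. It was found in 43.2%, 24.4%, 25.3% and 7.06% of Klf1-positive cells, set only by at least 3 Klf1 UMIs. The libraries kept the same order in both classes of cell, and the part of free RNA in these values was not tested. Mast cell and basophil genes gave 4 of 4 tested, of 10 in the list, non-overlapping lower (against 15% of all genes), among them Cpa3 and Hdc, histidine decarboxylase (11.02, 11, 4.46 and 1.05 CPM), while Cma1 was at 0 in all 4 libraries. Hdc rested on 11, 20, 7 and 8 UMIs, and 3 cells held 60% of those in control 2. The filter on low counts can be met in the controls alone, as by Hdc, so the 4 of 4 was partly favoured by that filter. Of 13 megakaryocyte and erythroid genes 6 were non-overlapping lower (46.2%, against 15% of all genes), including Gfi1b, a transcriptional repressor that acts within that lineage, at 31.0, 26.4, 19.8 and 11 CPM.

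Cholesterol synthesis genes leaned higher. Of 21 tested, 19 had a positive fold change, 10 had non-overlapping higher groups (47.6%, against 14.9% of all genes) and 1 lower, and the median log2 fold change was 0.31; none passed after adjustment. Fdps, farnesyl diphosphate synthase, stood at 32.05, 20.9, 49.1 and 37.6 CPM, Cyp51, lanosterol demethylase, at 14.0, 22.6, 31.9 and 29.1 CPM, and Insig1, a sterol-sensing regulator, at 11.02, 17.1, 23.6 and 27.2 CPM. The list's median stayed between 0.19 and 0.44 when each library was left out. Relative to the mean of the controls, its median log2 level was 0.181, -0.181, 0.177 and 0.341, so Yoda1 1 did not exceed control 1 by this measure. Socs2, a feedback inhibitor of cytokine signalling, stood at 12.02, 18.7, 31.2 and 25.5 CPM.

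None of the genes nearest to the drug's known target was below an unadjusted p of 0.05 except 1 of the YAP and TAZ list and 1 adhesion gene. Piezo1 itself stood at 15.0, 13.8, 12.1 and 12.2 CPM, with a UMI in 7.22%, 7.49%, 5.67% and 6.65% of gated cells (log2 fold change -0.23, SE 0.28). Its groups did not overlap, but the sign turned with at least 2 Hlf UMIs required (0.19) and with the gate drawn on thinned cells (0.23). Piezo1 was lower in gated than in other cells by a log2 difference of -0.69 (SE 0.15). Piezo2 was at 0 in all 4 libraries. Over 23 calcium and NFAT pathway genes the median log2 fold change was 0.01, and over 22 adhesion and actomyosin genes -0.01, with 1 of these higher at an unadjusted p under 0.05. Of 5 YAP and TAZ pathway genes tested, 1 was non-overlapping higher (20%, near the 14.9% of all genes) and none lower. Medians for oxidative phosphorylation (24 genes), glycolysis and hypoxia (19), ribosome biogenesis (16), DNA methylation (12), p53 targets (11), NF-kB (14) and niche signalling (22) lay between -0.12 and 0.10. Heat shock and unfolded protein genes gave a median of 0.09 over 18, with 6 non-overlapping higher (33.3%, against 14.9% of all genes) and 1 lower. The p53 targets gave 4 of 11 non-overlapping lower (36.4%, against 15%) and the niche signalling genes 6 of 22 (27.3%).

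A direct test of whether the treatment difference inside the gate departs from that in the other kept cells passed for 14 genes, 0.0792% of 17667. Fos, Cdkn1c and Mllt3 were not among them. Of the lists, the MHC class II genes gave 3 of 11, Cd74, H2-Aa and H2-Eb1, and the mast cell and basophil genes 2 of 10, Cpa3 and Mcpt8; the stem cell transcription factors gave 1 of 22, Nkx2-3, and the interferon genes 1 of 34, Iigp1. In control 2, 3 cells held 73.5% of the gated Mcpt8 UMIs, and without the 3 highest cells of each library it stood at 3.004, 4.95, 5.098 and 3.27 CPM, with overlapping groups. For Cd74 the gated sums stood at 103, 72.1, 128 and 135 CPM and the other cells at 193.5, 254.5, 45.8 and 242.5 CPM. Yoda1 1 was the low library outside the gate and not inside it. In Yoda1 2, as in both controls, Cd74 was lower inside the gate than outside. Its SE of 0.207 does not reflect that difference between the Yoda1 libraries, because this test used a spread pooled over genes. The 14 calls therefore describe these libraries and do not rest on each gene's own spread between them.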

How the data were processed

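The authors deposited raw counts of UMIs per gene and barcode, written by Cell Ranger 7.1.0 per the file headers; Seurat 4.3.0 appears in the submitters' processing notes, which give mm10 and GRCm38 as builds. Both 10x Genomics and a microwell chip appear in the labels, so the capture platform is uncertain; strand and intron handling are not given in the sources used here. Barcodes needed 500 genes, 1000 UMIs and no more than 10% mitochondrial UMIs. Gated, cycling and other cells were summed per library and tested with edgeR 4.0.16 (TMM scaling, filterByExpr, quasi-likelihood, Benjamini-Hochberg), checked on simulated data; alternatives used DESeq2 1.42.0 and limma 3.58.1 in R 4.3.3. SE is the absolute log2 fold change divided by the square root of F, left undefined for F under 0.01. The treatment model used treatment only; the other models blocked on library. Scanpy 1.11.5 ran Scrublet, whose automatic call marked 635, 2, 0 and 0 cells and so had not worked in 3 libraries; doublets were kept, and removal of top scores was an alternative. The members and the 36 gene lists were chosen with earlier results of these data known. With none past the threshold, named genes were, per direction, the 8 of smallest unadjusted p at 20 CPM or more with non-overlapping groups (predicted, mitochondrial, ribosomal and sex genes left out), fixed stem cell genes, up to 3 per list, and the 10 largest changes against other or cycling cells; Birc5, Ccnd2, Cdkn1a, Egr1, Hdc, Ifit1, Ifit3, Insig1, Isg15, Jun, Mcm5, Meis1, Rsad2, Vwf and the genes of the divided gate were chosen after their values were seen. Positions come from GENCODE M21 (GRCm38) by gene identifier, 1-based, and are those of whole genes. Some genes are not reported here.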

Additional observations from a re-analysis of the deposited data

Results flagged for a closer look

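A test of whether the treatment difference inside the gate departs from that in the other kept cells passed for 14 of 17667 genes (0.0792%, edgeR quasi-likelihood test with an interaction term, gate genes set aside). Its p-values use a spread pooled over genes and not each gene's own spread between libraries. The log2 departure was positive for Cd74 (1.64), H2-Aa (1.47), H2-Eb1 (1.71), Plbd1 (4.07) and Gda (1.52). For Cd74 the other kept cells held 194, 254, 45.8 and 243 CPM, so the Yoda1 1 library was low outside the gate, and 3 cells held 62.4% of its gated UMIs in Yoda1 2. Plbd1 rested on 0, 1, 0 and 44 gated UMIs, 33 of the latter in 3 cells, and 3 cells of control 2 held 25 of its 34 Mcpt8 UMIs.

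It was negative for Slc16a11 (-1.56), Nkx2-3 (-1.16), Cpa3 (-1.37), Gm19590 (-0.92), 9030619P08Rik (-0.89), Vldlr (-1.02), Iigp1 (-0.85), Mcpt8 (-1.54) and Pglyrp2 (-0.90). Nkx2-3 stood at 105, 80.3, 97.5 and 102 CPM in gated cells and at 8.63, 12.3, 13.4 and 45.1 CPM outside. The library that stands apart is thus Yoda1 2, in its other cells. Yoda1 2 also had the most Hlf-positive cells, and the part of that in this value was not tested.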

How the results depend on the processing

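Within the gate the number of genes called between Yoda1 and control was 0 with all libraries, 33 with no filter on low counts and 0 to 96 when each library was left out in turn, where the lone library of a group is assumed to vary like the other group; the cause of the rise without the filter was not tested. Other scalings, tools and cell settings, as well as the replicate block, also gave 0. Whether a shared replicate number marks a shared day or batch is not given in the sources used here: over 10345 genes the second-minus-first differences of the 2 groups correlated at 0.112, and the block left 382 genes at an unadjusted p under 0.05 against 291 without it. Counts here include the gate genes. Against cycling cells 4089 genes were called, 2028 with the gate drawn on thinned cells and 2944 to 3796 with a library left out; against other cells 6560 and 5212 to 6923. The interaction called 17, 9 with no filter on low counts, and 4 to 691 with a library left out, the highest without Yoda1 1. The difference in gated share, 5.06 percentage points, ran from 0.145 to 9.97 with a library left out and kept its sign.

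Of 45 genes followed within the gate, 4 changed sign when a library was left out: Ifi44 (-1.16 to 2.06), Oas3 (-0.68 to 2.17), Ly6a (-1.06 to 1.10) and Flt3 (-0.53 to 0.22, log2). With the gate on thinned cells Mllt3 was at -0.0179, Gata3 at -0.19, Cd34 at 0.0232, Flt3 at 0.14 and Piezo1 at 0.23; with at least 2 Hlf UMIs required, Flt3 was at 0.0624 and Piezo1 at 0.19. Depth limits shares with a UMI: genes under 5 CPM in gated cells, such as Slamf1, could not be ranked between libraries.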
